A study of Mus musculus with 26 samples.

Results

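Immediate early genes are switched on within minutes of a stimulus, from transcription factors already present in the cell. The 10 described here, of 31053 genes in the files, are Fos, Fosb, Jun, Junb, Jund, Atf3, Egr1, Ier2, Dusp1 and Nr4a1. They were chosen by symbol because their levels in 1 library of sorted microglia, E15.5 MIA replicate 1, lay far above those of the other libraries. Their levels in that library, and the E15.5 comparison of MIA with saline that contains it, are therefore given as a description with no test, and tests are restricted to other libraries and other comparisons.

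Fos and Jun proteins pair to form AP-1, a transcription factor that binds the TPA response element, and Atf3 can pair with Jun proteins. Egr1 is a zinc finger transcription factor and Nr4a1 an orphan nuclear receptor, while Dusp1 removes phosphate from the MAP kinases that switch these genes on, and so acts as a brake. Their transcripts are short-lived, and in microglia they are known to rise after inflammatory stimuli and also during tissue dissociation.

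Microglia were sorted from mouse cortex as Cd11b+, Cx3cr1+, Cd45low cells of the C57Bl/6N strain. Pregnant dams had received saline or Poly(I:C), which imitates the RNA of a virus, at E12.5, and the latter treatment is called maternal immune activation (MIA). The 18 microglia libraries comprised 3 saline and 3 MIA libraries at E13.5, the same at E15.5, and 4 saline and 2 MIA libraries at P14. Embryos were pooled within each embryonic library with the sexes not separated, and P14 saline replicate 3 comprised a female and a male library. The other 8 libraries held nuclei of frozen E15.5 cortex from male embryos, 2 each for wild type and Csf1r-null, which lack the receptor that microglia need to survive, after saline or MIA. The replicate was the library, so a p-value measures the spread between libraries, of which only those of embryonic microglia are described as pools of embryos. For the nuclei the paper names 4 pregnant dams in all and littermate controls, while the labels give no litter. Libraries of nuclei that share a litter would not be independent, and the tests could not account for this.

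Between 268 and 5533 cells per library were kept as microglia, with medians of 3700 to 25974.5 unique molecular identifiers (UMIs, one per captured RNA molecule) per cell, and levels are given as CPM, the counts of a gene scaled to the UMIs of all kept cells and expressed per 1000000 UMIs. All 11 microglial markers, among them Cx3cr1 and P2ry12, were found in each of the 18 libraries, and summed to 17836 to 19959 CPM at E13.5, 26203 to 36898 CPM at E15.5 and 50840 to 59958 CPM at P14. Nuclei carried 12.3 to 48.9 CPM of that list. In a summed library, fewer cells expressing a gene and less of its RNA per cell cannot be told apart, which is why shares of cells are given beside the levels.

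Some libraries stood apart before any member was considered. In E15.5 MIA replicate 1, 25.2% of cells were removed as other cell types, doublets aside, against 1.81% to 8.55% in the other 17. In E13.5 MIA replicate 2, 70.6% of kept cells carried a barcode found in another library, as did 50.4% in E13.5 MIA replicate 1, 17% in E15.5 MIA replicate 3 and 1.86% in E15.5 MIA replicate 1. Leaving out the copies with fewer UMIs put the sum of the 10 genes in E15.5 MIA replicate 1 at 1249 CPM, against 1250.1 CPM with them. It changed 1 call on a member, Dusp1 in the comparison of P14 with E15.5 given further on. Among nuclei, Csf1r, the targeted gene, was at 1.90, 0.983, 1.34 and 0 CPM in saline replicates 1 and 2 and MIA replicates 1 and 2 under the wild-type label, and at 0.295, 1.10, 0.142 and 0.0978 CPM under the Csf1r-null label. Microglia-like nuclei numbered 9, 6, 9 and 0 in the former and 0, 7, 0 and 0 in the latter. MIA replicate 2 labelled wild type and saline replicate 2 labelled Csf1r-null thus go against their labels in both measures, so genotype and treatment of nuclei are given as labelled throughout, and the comparisons of MIA with saline in nuclei rest on both libraries.

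Upstream sequences are shown for Fos, Fosb and Dusp1, which had the largest ratios among the 8 members searched in the promoter table, and for Nr4a1, the member that did not follow them. Each is the 250 bases before the RefSeq start of the gene (GRCm38.p6), 5′ to 3′ on the gene's strand, with capitals marking the core of the cAMP response element, TGACG or its reverse complement CGTCA, to which CREB and ATF proteins bind. The Fos window is chr12:85473640-85473889 on the plus strand, the Fosb window chr7:19310046-19310295 on the minus strand, the Dusp1 window chr17:26508473-26508722 on the minus strand and the Nr4a1 window chr15:101266596-101266845 on the plus strand.
Fos: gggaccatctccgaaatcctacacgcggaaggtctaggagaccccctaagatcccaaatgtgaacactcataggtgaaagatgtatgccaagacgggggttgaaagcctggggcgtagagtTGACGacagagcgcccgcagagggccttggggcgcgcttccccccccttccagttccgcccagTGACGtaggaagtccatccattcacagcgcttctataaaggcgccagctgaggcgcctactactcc
Fosb: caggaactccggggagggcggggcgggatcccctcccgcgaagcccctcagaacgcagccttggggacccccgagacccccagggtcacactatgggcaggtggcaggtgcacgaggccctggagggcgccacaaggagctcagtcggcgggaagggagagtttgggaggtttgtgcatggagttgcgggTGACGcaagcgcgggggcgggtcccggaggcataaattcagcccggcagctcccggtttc
Dusp1: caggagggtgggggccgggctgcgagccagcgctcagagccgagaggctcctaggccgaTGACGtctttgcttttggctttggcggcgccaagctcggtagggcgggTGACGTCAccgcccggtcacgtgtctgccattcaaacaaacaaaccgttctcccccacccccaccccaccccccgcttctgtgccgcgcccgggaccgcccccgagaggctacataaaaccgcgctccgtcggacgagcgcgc
Nr4a1: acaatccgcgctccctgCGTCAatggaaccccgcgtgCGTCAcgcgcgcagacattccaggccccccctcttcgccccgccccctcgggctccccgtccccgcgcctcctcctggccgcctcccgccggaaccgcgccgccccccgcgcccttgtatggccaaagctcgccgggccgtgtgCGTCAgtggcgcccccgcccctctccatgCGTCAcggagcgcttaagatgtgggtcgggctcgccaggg
The core was found 2 times before Fos, 1 time before Fosb, 3 times before Dusp1 and 4 times before Nr4a1. Dusp1 was the only member of the 8 searched with the full palindrome TGACGTCA. Atf3 and Junb held 1 core each, and Jun and Jund held none. Over all 32851 promoters in the same table, 17.8% held the core and 1.55% the palindrome on either strand, the palindrome containing the core. The AP-1 site TGANTCA, present in 6.75% of all promoters, and the CArG box of serum response factor, present in 1.47%, were in none of the 8 windows, and TATAAA, present in 12.4%, was in the Fos window alone. A match is a description of the sequence, and no match says only that the letters are absent from this window. Egr1, whose ratio of 15.7 lay above that of Dusp1, and Ier2 were not searched.

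Fos was the member with the largest excess. In E15.5 MIA replicate 1 it stood at 87.0 CPM, while E15.5 MIA replicates 2 and 3 had 1.48 and 2.37 CPM and the E15.5 saline replicates 1 to 3 had 2.48, 1.53 and 1.66 CPM. The first value was 52.5 times the median of the other 5 E15.5 libraries, and those 5 overlapped between treatments. At E13.5 the saline replicates 1 to 3 had 1.16, 1.77 and 8.14 CPM and the MIA replicates 2.43, 1.83 and 9.74 CPM, so that both replicate 3 libraries were high whatever the treatment. At P14 all 6 libraries were low, between 0.465 and 2.19 CPM. Fosb, its close relative in AP-1, followed the same libraries at lower counts: 7.57 CPM in E15.5 MIA replicate 1 against 0.1248 to 0.383 CPM in the other 5 of that stage, 2.09 and 2.28 CPM in the replicate 3 libraries of E13.5, and no more than 0.0971 CPM in the other 4.

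**Figure D1:**
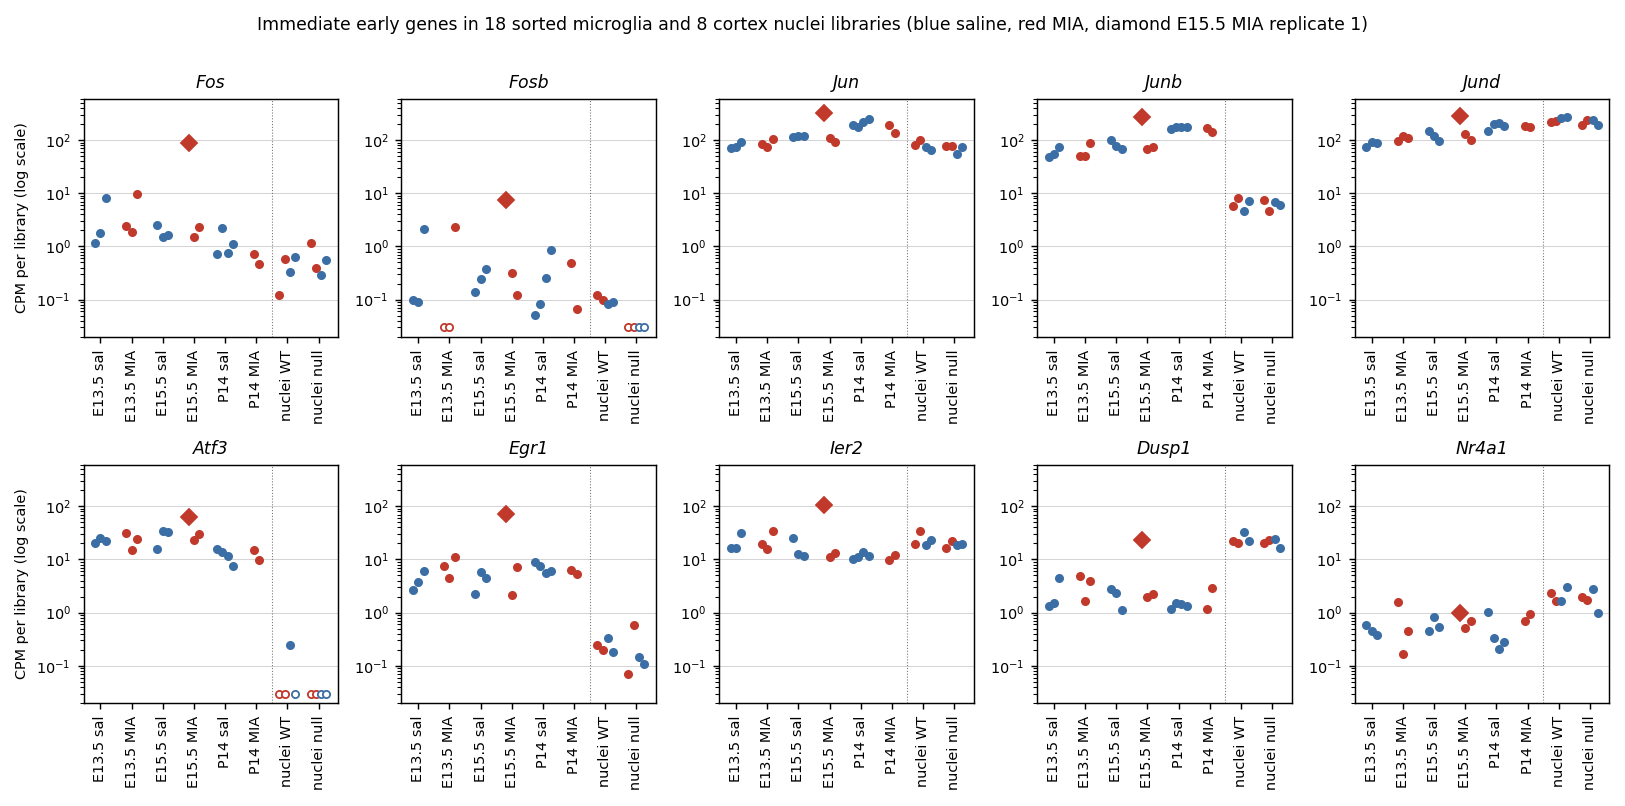
CPM of each of the 10 genes (log axis) in every library, grouped by stage and treatment for microglia and by genotype for nuclei, saline in blue and MIA in red; open points at the bottom mark libraries without a UMI. The diamond, E15.5 MIA replicate 1, lies above every other microglia library for 9 genes, with 87.0 CPM of Fos and 71.0 CPM of Egr1, and among the others for Nr4a1 (0.986 CPM).

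The Jun family was abundant in every microglia library, and its excess in E15.5 MIA replicate 1 was smaller than that of Fos and Fosb. Jun, the main partner of Fos, reached 325 CPM in E15.5 MIA replicate 1, with 108 and 92.4 CPM in the other MIA libraries of that stage and 114, 122 and 121 CPM after saline. That is 2.85 times the median of the other 5, and the 2 lower MIA libraries lay below all 3 saline libraries. That order rested on 1 cell of saline replicate 2, without which its Jun was 105.7 CPM. Junb, which can restrain Jun, stood at 277 CPM against 68.9 to 100.9 CPM in the other 5, and Jund, the most constant of the family in resting cells, at 288 CPM against 96.4 to 149.8 CPM. For these 3 genes the next library in order was a P14 saline library, with 246 CPM of Jun, 177 CPM of Junb and 205 CPM of Jund.

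Atf3, a stress-induced member of the ATF and CREB family, had 62.8 CPM in E15.5 MIA replicate 1. The other MIA libraries of the stage had 23.7 and 30.1 CPM and the saline libraries 15.4, 34.1 and 32.4 CPM. With a ratio of 2.09 to the median of the other 5 it was, after Nr4a1, the member with the smallest excess.

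Egr1 stood at 71.0 CPM in E15.5 MIA replicate 1, at 2.11 and 7.30 CPM in the other 2 MIA libraries and at 2.29, 5.84 and 4.51 CPM after saline, a ratio of 15.7 to the median of the 5. Ier2, a small nuclear protein induced with the AP-1 genes, stood at 108 CPM against 11.3 to 25.1 CPM in the other E15.5 libraries. Ier2 also separated the replicate 3 libraries of E13.5, which had 30.9 and 34.6 CPM, from the other 4 of that stage, which had at most 19.2 CPM.

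The feedback gene Dusp1 was at 22.8 CPM in E15.5 MIA replicate 1 and between 1.12 and 2.83 CPM in the other 5, a ratio of 10.1. Nr4a1 was the exception among the 10. It had 0.986 CPM in that library, from 44 UMIs, and 0.521, 0.686, 0.449, 0.825 and 0.536 CPM in MIA replicates 2 and 3 and saline replicates 1 to 3. It lay behind E13.5 MIA replicate 1 with 1.57 CPM and P14 saline replicate 1 with 1.02 CPM, and its counts, 1 to 44 UMIs a library, leave small differences undetectable at this depth. The choice of the members set no numerical limit, so that the member least like the rest was Nr4a1 with a ratio of 1.84, next to Atf3 with 2.09.

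The sum of the 10 genes was 1250.1 CPM in E15.5 MIA replicate 1 and 325 to 413 CPM in the other 5 E15.5 libraries, and the next of all 18 was P14 saline replicate 3 male with 639 CPM. Taken over the groups, Fos was 30.3 ± 49.1 CPM after MIA and 1.89 ± 0.518 CPM after saline (SD, n = 3 each), Egr1 26.8 ± 38.4 and 4.21 ± 1.79 CPM, and Jun 175 ± 130.1 and 119 ± 4.34 CPM. The SD of the MIA group exceeded its mean for Fos and Egr1, and 1 of its 3 libraries carried the excess.

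With that library set aside, E15.5 MIA replicates 2 and 3 were tested against the 3 saline libraries. None of the 10 members was called, against 0% of 13408 genes (0 by DESeq2, 40 genes with an unadjusted p under 0.05). The log2 fold changes ran from -0.46 for Ier2 (SE 0.37) to 0.12 for Egr1 (SE 0.56), with a median of -0.04 over the members and 0.00 over all genes. Fos differed by -0.02 on the log2 scale (SE 0.38, edgeR adjusted p = 1.00). The SEs ran from 0.17 for Jun to 0.74 for Fosb. Of the 41 further immediate early genes on a list, none of 37 tested was called, and its most abundant members Zfp36l1 and Rhob differed by 0.22 and 0.08.

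The excess in E15.5 MIA replicate 1 was spread over many cells. To set depth aside, each cell was thinned to 2000 UMIs. There, 23.0% of its 3875 cells had no UMI of the 10 genes and 37.5% had 3 or more, with a median of 2 UMIs. In the other 5 E15.5 libraries 50.3% to 59.1% had none, 5.11% to 7.75% had 3 or more and the median was 0. At P14, 32.4% to 41.5% had none and 9.15% to 16.1% had 3 or more, with a median of 1, so these libraries lay between. The 10% of cells with most of these UMIs held 38.0% of them in E15.5 MIA replicate 1 and 40.6% to 45.8% in the other libraries of the stage. At P14 they held 32.1% to 35.9%. Such a share depends on the mean count, so it does not measure evenness. The mean was 2.70 UMIs in E15.5 MIA replicate 1 and 0.656 to 0.833 UMIs in the other 5 E15.5 libraries. The variance over the mean was 4.30 in the former and 1.39 to 3.39 in the latter.

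**Figure D2:**
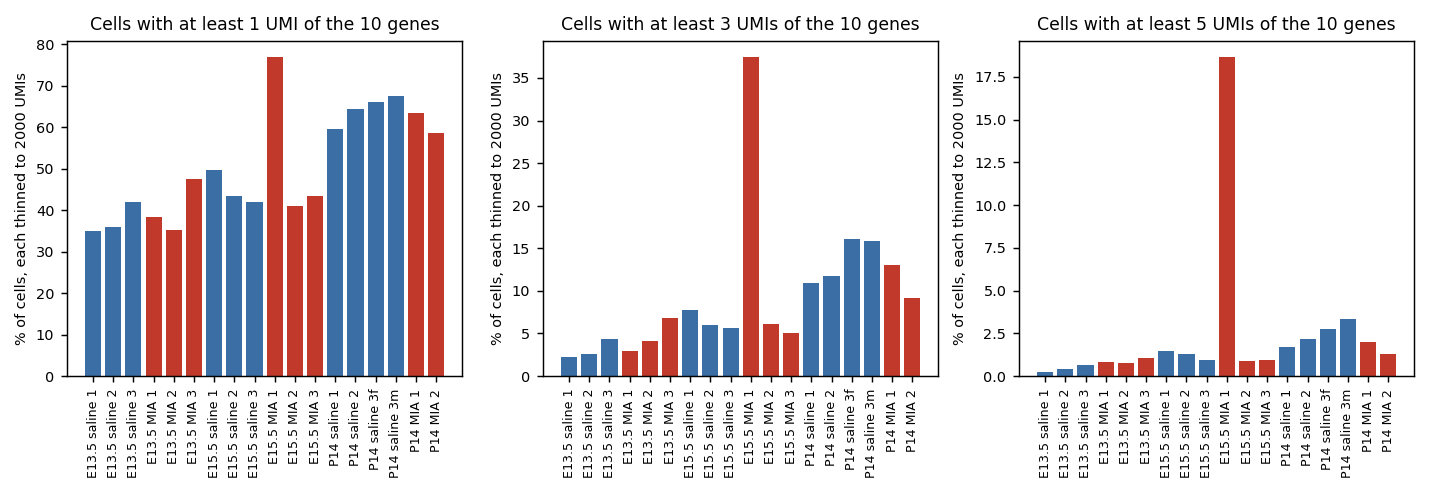
Percentage of cells, each thinned to 2000 UMIs, with at least 1, 3 or 5 UMIs of the 10 genes in each of the 18 microglia libraries, saline in blue and MIA in red. E15.5 MIA replicate 1 has 37.5% of cells with 3 or more, the P14 libraries up to 16.1% and the other E15.5 libraries up to 7.75%.

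A Fos UMI was found in 12.6% of the thinned cells of E15.5 MIA replicate 1 (exact 95% binomial interval 11.6% to 13.7%), against 0.0990% to 0.472% in the other 5. Egr1 was found in 11.1% (10.1% to 12.2%) against 0.354% to 0.786%, and Dusp1 in 4.67% (4.03% to 5.38%) against 0.272% to 0.580%. Jun was found in 37.9% (36.4% to 39.5%) against 15.3% to 19.3%. Without thinning, Fos was found in 30.2% of its cells and in 1.11% to 2.57% of cells in the other 5. Such intervals cover counting error only.

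Cells with a Fos UMI carried the other members more often. In E15.5 MIA replicate 1, 488 thinned cells had Fos and 3387 did not. Egr1 was found in 24.2% of the former and 9.24% of the latter, Ier2 in 34.2% and 14.6%, Dusp1 in 14.1% and 3.31% and Fosb in 6.76% and 0.856%. The Jun genes differed in the same direction, with Jun in 61.5% and 34.5%, Junb in 53.9% and 33.7% and Jund in 60.5% and 35.8%. Atf3 barely differed, at 7.58% and 6.32%, and Nr4a1 was found in 0% of the cells with Fos and 0.295% of those without. At least 4 of the 10 genes were seen together in 11.6% of its cells and in 0.148% to 0.387% of cells in the other 5. No test is attached to these shares, because cells of a library share their preparation.

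Single cells carried large counts in some other libraries. In E15.5 saline replicate 2, 1 cell held 834 UMIs of the 10 genes, 526 of them Jun, which is 6.76% of all such UMIs in the library, and the sum fell from 377 to 352 CPM without it. In E13.5 MIA replicate 1, 1 cell held 185 of these UMIs, 67 of them Atf3, and the sum was 299 CPM with it and 273 CPM without. The highest cells of P14 saline replicate 2 and E15.5 saline replicate 1 held 172 and 143 such UMIs, or 1.21% and 0.485% of those libraries'. In E15.5 MIA replicate 1 the highest cell held 92 UMIs, or 0.165% of the library's.

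The clusters of kept cells used next were made without the members and without the lists of related stress genes. Egr1 and Fos led cluster 0, but 40.8% of its cells came from E15.5 MIA replicate 1, the library the members were chosen on. Its Fos was at most 2.70 CPM in the other 5 E15.5 libraries. In E15.5 MIA replicate 1 it was at 91.5 CPM, below clusters 2, 5, 8, 10 and 17. Cluster 0 held 40.1% of the kept cells of that library and 3.69% to 20.3% of those of the other 5. Cluster 5 held 0.579% of the cells of E15.5 MIA replicate 1, 0.967% of those of saline replicate 1 and 11.7% to 29.2% in the other 4. Both clusters belong to the microglia of no named class, so the make-up of that class differed between libraries. All 15 clusters with at least 20 cells in E15.5 MIA replicate 1 and in another E15.5 library had more Fos, and a larger sum of the 10 genes, in E15.5 MIA replicate 1 than in every other E15.5 library. Fos ranged from 8.04 to 273 CPM over those clusters and reached at most 21.6 CPM in the same clusters of the other libraries. The 273 CPM came from cluster 10, with 221 cells at a median of only 1164 UMIs. The next value, 268 CPM, came from the 24 cells of cluster 5. Outside these 15, clusters of at least 20 cells in the other E15.5 libraries had up to 44.6 CPM of Fos, the highest in a macrophage-like cluster of saline replicate 1. Of the 15, cluster 20 was led by red cell and neuronal genes and could be compared with only 1 library, and the other 14 gave the same order. By class, Fos was 139 CPM in cells like Ms4a7 macrophages, 129 CPM in interferon-responsive-like cells, 92.4 CPM in microglia of no named class, 60.3 CPM in cluster 13, led by Baiap2l2, Csf1 and Nexn, and 47.1 CPM in dividing-like cells. Of these groups, the dividing-like cells were lowest.

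**Figure D3:**
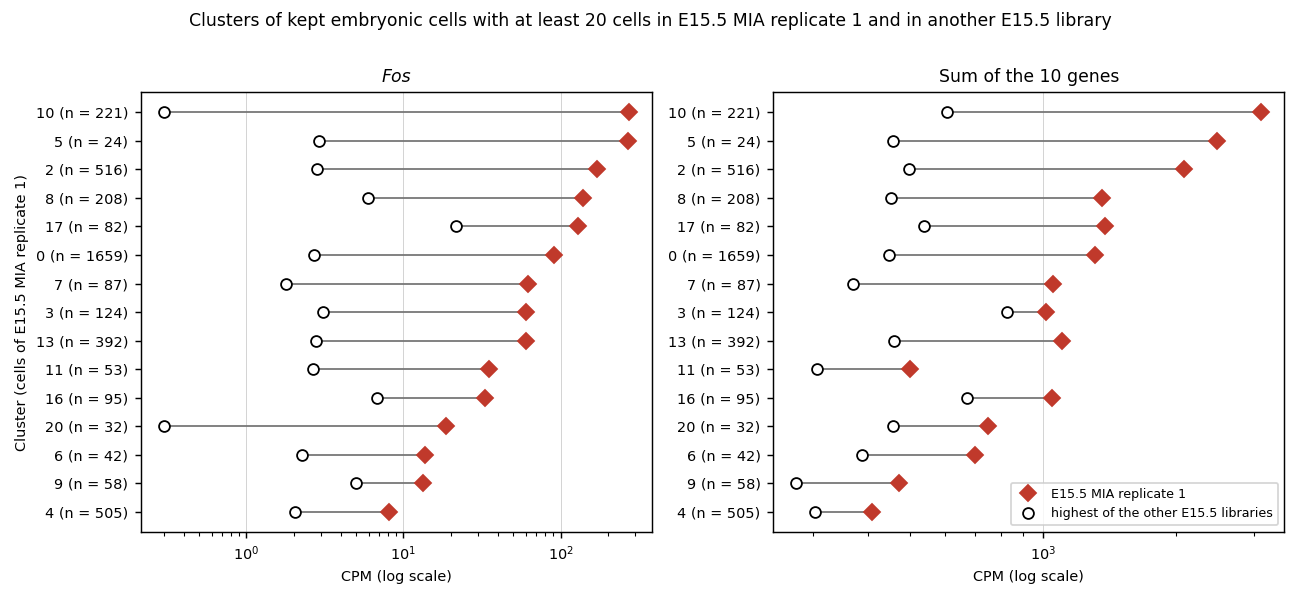
CPM (log axes) of Fos and of the sum of the 10 genes in 15 clusters of kept embryonic cells, as a red diamond for E15.5 MIA replicate 1 and an open circle for the highest of the other E15.5 libraries, with a value of 0 drawn at the left edge. The diamond lies to the right in 15 of 15 clusters, with Fos between 8.04 and 273 CPM, the latter in cluster 10 at a median of 1164 UMIs.

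The 1392 cells removed from E15.5 MIA replicate 1 as other cell types did not share the excess in Fos. They had 4.56 CPM of Fos (95% Poisson interval 3.29 to 6.16, from 42 UMIs). The removed cells of the other 5 E15.5 libraries had 0.823 to 6.22 CPM, with a median of 2.45 CPM. In E15.5 MIA replicate 1, 2.23% of the removed cells had a Fos UMI at a median of 3198 UMIs, against 30.2% of the kept cells at 9605.5 UMIs. Egr1 was at 6.30 CPM, Fosb at 0.326 CPM and Atf3 at 3.69 CPM in the removed cells, and each was at least 11.3 times higher in the kept cells. For Atf3 the other 5 libraries differed alike, with medians of 30.1 CPM in the kept and 3.29 CPM in the removed cells. Ier2 at 39.1 CPM, Jund at 597 CPM and Dusp1 at 32.5 CPM did exceed the removed cells of all other 5 libraries, which had at most 27.0, 495 and 28.2 CPM. Jund, Dusp1 and Nr4a1 went the other way, with 597, 32.5 and 1.52 CPM in the removed and 288, 22.8 and 0.986 CPM in the kept cells. In the other 5 libraries too, Jund was at 230 to 495 CPM and Dusp1 at 18.7 to 28.2 CPM in the removed cells, above their kept cells.

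**Figure D4:**
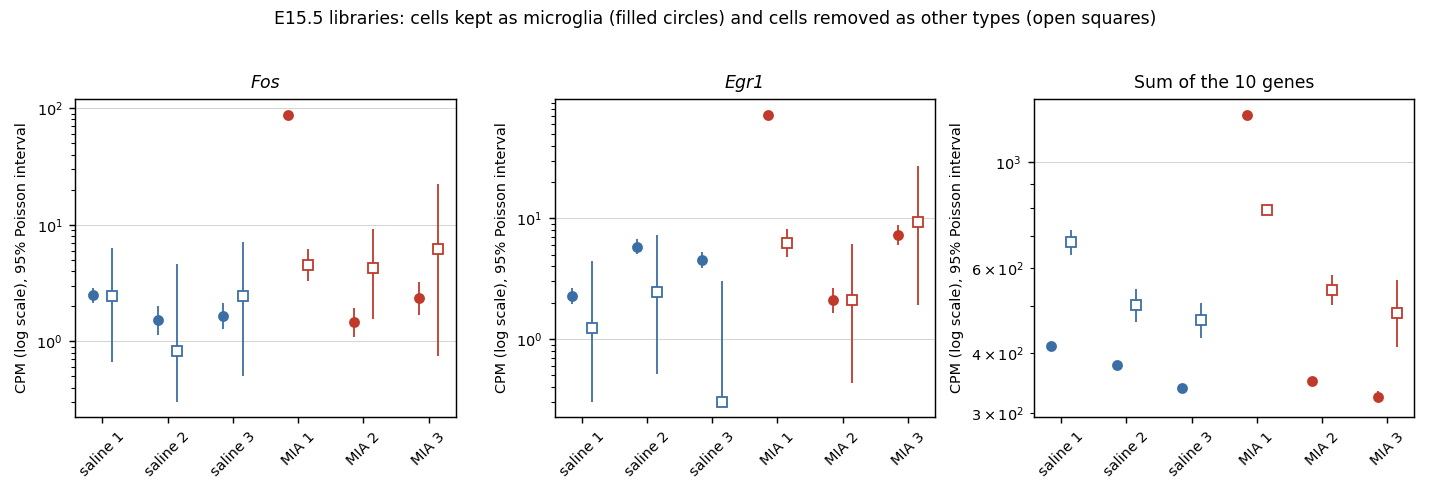
CPM (log axes, with 95% Poisson intervals) of Fos, Egr1 and the sum of the 10 genes in the 6 E15.5 microglia libraries, for cells kept as microglia (filled circles) and cells removed as other types (open squares; a value of 0 is drawn at the bottom). In MIA replicate 1, Fos is at 87.0 CPM in the kept and 4.56 CPM in the removed cells.

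Other measures moved with that library. Its kept cells held 245 CPM of a list of 8 neuronal markers, with 5 of the 8 above each of the other 5 E15.5 libraries and none at 0, where the others held 29.8 to 204 CPM. Red cell markers were at 199.7 CPM against 759 to 5759 CPM, with Hbb-bh1 at 0. Endothelial markers, at 22.5 CPM against 28.0 to 42.1 CPM, and markers of Ms4a7 macrophages, at 229 CPM against 274 to 601 CPM, were also below the other 5 libraries, with 3 of 6 and 3 of 8 markers below all of them. The list of 11 microglial markers was above, at 36898 CPM against 26203 to 32827 CPM, with 6 markers above all of the other 5 and 1 below. Of 11468 genes with a mean of at least 1 CPM, 17.8% lay above all of the other 5 and 33.6% below. The 3 of 8 macrophage markers below lay near that share, so that count is not particular to them. The mitochondrial share of E15.5 MIA replicate 1 was 2.09%, the lowest of the embryonic libraries, which reached 5.04%. Its median depth of 9605.5 UMIs lay within the 8718 to 12427.5 UMIs of the stage. The part of these measures in the excess was not tested.

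At E13.5, both replicate 3 libraries, the saline and the MIA one, lay above the other 4 libraries for 5 of the 10 members, namely Fos, Fosb, Jun, Junb and Ier2. Of 11253 genes with a mean of at least 1 CPM over the E13.5 libraries, 11.7% showed that pattern. Fosb, which is among the 5, and Nr4a1 lay below that mean. Their group means were 0.760 to 0.761 CPM and 0.473 to 0.729 CPM. Jun was at 91.2 and 107 CPM in the replicate 3 libraries and at most 83.8 CPM in the other 4, and Junb at 73.0 and 87.9 CPM against at most 55.2 CPM.

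Between MIA and saline at E13.5, a day after the injection, none of the 9 members tested passed the threshold, against 0% of 12430 genes (edgeR, 119 genes at an unadjusted p under 0.05, 2 called by DESeq2). Egr1 had the largest fold change, at 7.43, 4.50 and 11.3 CPM after MIA and 2.62, 3.75 and 6.18 CPM after saline, with a log2 fold change of 0.95 (SE 0.37, edgeR adjusted p = 1.00). Within each replicate number the MIA library was the higher, while the groups overlapped. Jund was at 97.6, 120.2 and 108 CPM after MIA and 72.6, 91.5 and 89.9 CPM after saline, without overlap. The share of all genes without overlap was not counted, so this separation is a description only. The log2 fold change of Jund was 0.34 (SE 0.13, edgeR adjusted p = 1.00). The paper lists Jund among the genes higher after MIA in all E13.5 microglia. It used DESeq2 with sex and sequencing batch as covariates, neither of which was a term here. The labels of these libraries give replicate numbers but name no pairs. With the number as a block 5 genes were called, none of them a member, with Egr1 at 0.88 (SE 0.21, edgeR adjusted p = 0.25). Without both replicate 3 libraries, Egr1 was at 0.88 (SE 0.34) and Fos at 0.50 (SE 0.43), while Fos was at 1.87 without saline replicate 3 and -0.88 without MIA replicate 3.

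At P14 the 2 MIA libraries were set against 4 saline libraries. None of the 10 members was called, against 0% of 12912 genes (edgeR, 487 genes at an unadjusted p under 0.05, 2 called by DESeq2). Fos was at 0.735 and 0.465 CPM after MIA and 0.712, 2.19, 0.760 and 1.11 CPM after saline, and the groups overlapped (log2 fold change -0.98, SE 0.54, edgeR adjusted p = 0.94). Nr4a1 stood at the other end with 0.88 (SE 0.62), and at 0.694 and 0.931 CPM after MIA against 1.02, 0.331, 0.211 and 0.286 CPM after saline. Junb, the member measured most closely here, differed by -0.12 (SE 0.08).

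Over stages, in saline libraries only, Jun rose at both steps and Junb at the second, while Atf3 fell at the second. The call on Jun at the first step was lost in 6 of 14 alternatives. Ier2 also passed at the second step, but lost its call in 9 of 16 alternatives. At each step the share of members that passed was below that of all genes, so the members did not change more often than other genes. From E13.5 to E15.5, Jun rose from 71.8, 72.6 and 91.2 CPM to 114, 122 and 121 CPM, without overlap (log2 fold change 0.60, SE 0.14, edgeR adjusted p = 0.031). It was the only one of 9 members tested to pass, while 15.2% of 13000 genes did, 8.16% higher and 7.05% lower. Junb and Jund had log2 fold changes of 0.51 (SE 0.22) and 0.54 (SE 0.20), with edgeR adjusted p = 0.15 and 0.11. Junb overlapped between the stages and Jund did not, and the share of all genes without overlap was not counted. Fos differed by -0.98 (SE 0.66), which became 0.36 without E13.5 saline replicate 3. The call on Jun was lost in 6 of 14 alternatives, namely the replicate block and the fits without each saline library but E15.5 saline replicate 1, and Atf3 and Ier2 passed only without that library. Without it the number of genes called went from 1977 to 5359.

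From E15.5 to P14, 4 of 9 members passed, against 48.2% of 13071 genes, 23% higher and 25.2% lower. Junb rose from 100.9, 78.8 and 68.9 CPM to 162, 174, 173 and 177 CPM (log2 fold change 0.78, SE 0.15, edgeR adjusted p = 0.0032). Jun rose further, to 189, 179, 216 and 246 CPM (0.54, SE 0.12, edgeR adjusted p = 0.0054). Neither gene overlapped between the stages, and the share of all genes without overlap was not counted here either.

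Atf3 fell from 15.4, 34.1 and 32.4 CPM to 15.8, 13.97, 11.4 and 7.66 CPM (log2 fold change -1.41, SE 0.31, edgeR adjusted p = 0.0059), although E15.5 saline replicate 1 lay within the P14 range. Ier2 passed narrowly, from 25.1, 12.6 and 11.4 CPM to 10.3, 11.3, 13.9 and 11.5 CPM (-0.76, SE 0.28, edgeR adjusted p = 0.047). The groups overlapped, and without E15.5 saline replicate 1 the change was -0.27 (edgeR adjusted p = 0.12). Dusp1 at -0.90 (edgeR adjusted p = 0.051), Fos at -0.93 (0.088), Nr4a1 at -0.65 (0.36), Jund at 0.33 (0.16) and Egr1 at 0.52 (0.20) did not pass. Of 16 alternatives, Dusp1 passed in 5, among them DESeq2, Jund in 2, Fos only without P14 saline replicate 2 (-1.41, edgeR adjusted p = 0.012) and Nr4a1 only without P14 saline replicate 1 (-1.37, edgeR adjusted p = 0.028). Scaling by library size alone moved the median of all genes by 0.28, with 5001 genes higher and 2283 lower against 3007 and 3295, put Jund past the threshold at 0.60 (edgeR adjusted p = 0.016) and took Ier2 back to -0.48 (0.14). Stage and preparation cannot be told apart in these libraries.

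**Figure D5:**
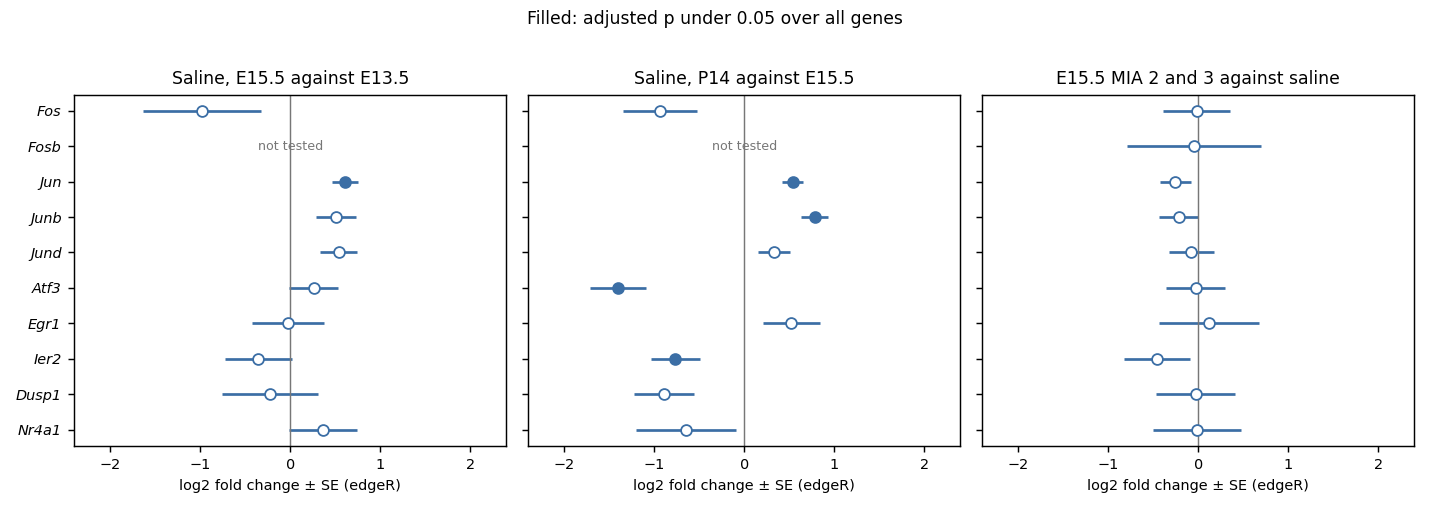
Log2 fold changes of the members with SEs from edgeR for saline E15.5 against E13.5, saline P14 against E15.5, and E15.5 MIA replicates 2 and 3 against saline, filled where the adjusted p was under 0.05. Jun is filled in both stage comparisons (0.60 and 0.54), Junb (0.78), Atf3 (-1.41) and Ier2 (-0.76) in the second, and no gene in the third.

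Related genes were read from lists of names. Of 33 further immediate early genes with a mean of at least 1 CPM, 23 were higher in E15.5 MIA replicate 1 than in all other 5 E15.5 libraries, against 17.8% of 11468 genes, and 2 were lower, against 33.6%. The mRNA decay factor Zfp36 was at 117 CPM against a median of 28.7 CPM, Ier3 at 67.7 against 17.5 CPM, and Egr2 at 4.88 against 1.20 CPM, while Fosl2 and Rgs2 lay below. Among genes of NF-kB feedback and chemokines 9 of 17 were higher, and 1 was lower. The higher ones included Ccl3 (520.0 against 199.8 CPM), Ccl4 (267 against 85.4 CPM) and Socs3 (18.1 against 8.32 CPM). The highest of the other 5 libraries had 312 CPM of Ccl3 and 197 CPM of Ccl4. The lower gene was Il6 (0.560 against 0.666 CPM), and Nfkbiz, Tnfaip3, Cxcl10, Tnf, Il1a, Il1b and Icam1 were neither. Of 19 upstream regulators, the kinases and factors that act on these promoters, 1 was higher (Map2k2, named after its value was seen) and 9 were lower, of 13 AP-1 partners 3 were higher and 2 lower, and of 13 heat shock genes 4 were higher and 2 lower, with the same 17.8% and 33.6% over all genes. Of 12 genes on a list of microglial identity, 6 were higher and 2, Csf1r and Sall1, were lower. These counts come from the library the members were chosen on and carry no test.

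In saline libraries the same lists gave tested counts. From E13.5 to E15.5, where 8.16% of all genes rose and 7.05% fell, 5 of 35 further immediate early genes rose and none fell, led by Btg2 and Sgk1, and 4 of 17 NF-kB and chemokine genes rose, led by Nfkbia. Of the heat shock genes, 4 of 13 fell, among them Hspd1. These counts depended on single libraries. Without E13.5 saline replicate 1 or 2 none of these genes passed in edgeR, and without E15.5 saline replicate 1, 9 of the 35 rose and 3 fell, 9 of the 17 rose and 1 fell, and 6 of the 13 fell. The replicate block left 2 of 35, 2 of 17 and 3 of 13. From E15.5 to P14, where 23% of all genes rose and 25.2% fell, 16 of 36 immediate early genes rose, led by Sgk1, Rhob and Ier5, and 10 fell, led by Klf2, Ier5l and Gadd45b. Further, 9 of 13 heat shock genes and 8 of 17 NF-kB and chemokine genes fell, Ccl3 and Il1b among the latter, and 4 of the 17 rose. Of the upstream regulators, 7 of 19 rose, including the transcription factor Mef2a, and Map2k2 fell. With scaling by library size alone, 38.3% of all genes rose and 17.5% fell at this step, and the counts became 17 higher and 9 lower of 36 immediate early genes, 5 and 8 of 17 NF-kB and chemokine genes, 1 and 9 of 13 heat shock genes and 12 and 0 of 19 upstream regulators.

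Over the 18 libraries, each centred on the mean of its stage, the genes most like the members in log2(CPM + 1), among 7903 with at least 10 CPM on average, were Clta (Pearson r = 0.92 with the members' mean) and Spp1 (0.92), followed by Zfp36, Ier3, Ppp1r15a, Amdhd2, Ctsl, BC031181, Tbc1d10a and Renbp (0.89). Without E15.5 MIA replicate 1 the same 10 genes had r between 0.46 for Renbp and 0.84 for Ppp1r15a. Spp1, the secreted phosphoprotein osteopontin, stood at 1170.5 CPM in E15.5 MIA replicate 1 and 55.7 CPM in the median of the other 5, and Clta, a clathrin light chain, at 2059 and 1455 CPM. Among the members, Fos was most like the mean of the other 9 (r = 0.97, and 0.83 without that library) and Nr4a1 least (0.21, and -0.03 without). The points share their preparations, and the values rest on 1 library to a varying degree.

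Nuclei of the cortex showed another pattern. In the 8 libraries of nuclei, Fos was at 0.121 to 1.14 CPM, Egr1 at 0.0710 to 0.587 CPM and Junb at 4.54 to 8.26 CPM. Atf3 had no UMI in 7 of the 8 libraries, and Fosb none in the 4 labelled Csf1r-null. Fosb was at only 0.0826 to 0.121 CPM in those labelled wild type, too low to compare genotypes. These genes were thus lower than in the microglia of each stage for Junb, Egr1 and Atf3, where the ranges did not overlap. Dusp1 was at 16.8 to 32.3 CPM in nuclei, above every microglia library but E15.5 MIA replicate 1, and Nr4a1 at 0.987 to 3.04 CPM, overlapping with the highest microglia libraries. Jund was at 189 to 270 CPM, Jun at 55.0 to 98.8 CPM and Ier2 at 16.6 to 34.8 CPM. Cells and nuclei differ in the RNA they hold and in preparation, so that cell type and material cannot be told apart here.

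With cells and nuclei thinned to 1000 UMIs, Fos was found in 0% to 0.0933% of nuclei, in 0.0720% to 0.246% of cells of the 5 E15.5 microglia libraries and in 7.54% of cells of E15.5 MIA replicate 1. In the empty droplets of the 4 replicate 1 nuclei libraries, Jund was at 293 to 371 CPM, Dusp1 at 25.5 to 29.4 CPM and Ier2 at 20.1 to 34.6 CPM, near or above the levels of the nuclei themselves. The same held for Junb, at 5.64 to 9.52 CPM in the empty droplets, and the ranges of Nr4a1 (1.34 to 2.10 CPM) and Fos (0 to 0.805 CPM) overlapped with those of the nuclei. So did the ranges of Jun (44.2 to 63.8 CPM) and of Egr1, Atf3 and Fosb (0 to 0.601 CPM each). Jun, Ier2 and Jund nonetheless varied by class over the 8 libraries. Jun was at 395 to 567 CPM in nuclei like apical progenitors and 8.10 to 24.5 CPM in nuclei like interneurons, and Ier2 at 23.7 to 62.8 CPM and 0 to 3.45 CPM in the same classes. Jund was at 237 to 371 CPM in nuclei like upper layer neurons and 63.8 to 113 CPM in those like interneurons, again without overlap. Dusp1 overlapped between these classes, at 17.8 to 37.1 CPM in the former and 6.84 to 32.7 CPM in the latter, and its level was not separated from that of the empty droplets. The few microglia-like nuclei, 6 to 9 in each of 4 libraries, held no UMI of Fos. Their median depths were 1358 to 1943 UMIs, too few in all to detect Fos at the level of the other 5 E15.5 microglia libraries.

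MIA was compared with saline within each genotype over the nuclei. Of 6 members with enough counts, none was called in the nuclei labelled wild type, against 0% of 14587 genes (edgeR, 764 genes at an unadjusted p under 0.05, 3 called by DESeq2), and none in those labelled Csf1r-null, against 0% (41 genes, 1 by DESeq2). The largest difference of a member within a genotype was that of Dusp1 in wild type, at 22.3 and 20.3 CPM after MIA and 32.3 and 22.1 CPM after saline (log2 fold change -0.41, SE 0.21, edgeR adjusted p = 0.93). Jun differed by 0.33 (SE 0.20) in wild type and 0.23 (SE 0.20) in Csf1r-null, and the difference between the genotypes was 0.10 (SE 0.28). With the labels of the doubtful libraries exchanged, 1 gene was called in each genotype and no member. No member passed the test of the difference between genotypes, in which edgeR called 0 genes and 240 had an unadjusted p under 0.05.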

How the data were processed

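The authors deposited UMI counts per gene and barcode from 26 10x libraries in 10 groups, made with Cell Ranger 3.1.0 or, for the replicate 2 nuclei, 6.0.1 per the file headers, against mm10. Sorted cells needed 500 genes or more and a mitochondrial share of up to 20%, and nuclei 500 UMIs and 200 genes or more. Doublets were removed with Scrublet in scanpy 1.11.5. Cells were clustered (Leiden, resolution 1) without the members and the stress lists, and clusters of other types were removed, by markers read after the clusters were seen. The sorted libraries then held 60384 cells (6004416 to 96002309 UMIs each) and the nuclei libraries 41539 nuclei (9121418 to 16462949 UMIs each).

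Counts were summed per library and tested with edgeR 4.0.16 (quasi-likelihood, TMM, R 4.3.3), with Benjamini-Hochberg adjustment over all genes and a threshold of 0.05, after the script was tested on simulated data. DESeq2 1.42.0, other scalings, filters, thinning depths, a replicate block and leaving out libraries were alternatives, of which the shared barcodes and both E13.5 replicate 3 libraries were chosen after seeing the data. Between libraries of equal number, deviations from group means correlated at 0.49, 0.19 and 0.51 at E13.5 and 0.62, 0.40 and 0.71 at E15.5. With E15.5 MIA replicate 1 left out, replicates 2 and 3 of that stage had 0.065 and 0.63. Libraries of unequal number were not compared, so these values do not establish pairs. The members and lists were chosen with earlier results of these data known. Besides the 10 members, up to 3 called genes per list, comparison and direction were named, or the 2 most abundant where none was called, and the 10 genes most alike. Examples from E15.5 MIA replicate 1 were chosen after their values were seen.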

Additional observations from a re-analysis of the deposited data

Results flagged for a closer look

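Nr4a1 in P14 saline replicate 1 stood far from the other 3 saline libraries of its stage, at 1.02 CPM against at most 0.331 CPM. The gap was 0.852 of the group's range. Its 20 UMIs included 5 in 1 cell, and the level was 0.763 CPM without that cell. Chance sets a library apart in this way in about 1 in 20 groups.

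The cells removed from E15.5 MIA replicate 1 as other cell types, which are not among the kept cells, had a summed level of the 10 genes of 795 CPM, above the 680 CPM of the highest removed cells in the other E15.5 libraries. Jund made up 597 CPM of that sum.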

How the results depend on the processing

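In the comparisons of MIA with saline that were tested, no member was called under any alternative. Over all genes at E13.5, DESeq2 called 2, the replicate block 5 and fits leaving out 1 library 0 to 6 (1 without saline replicate 1 and 6 without MIA replicate 3). DESeq2 called 2 genes at P14, 3 in the wild-type nuclei and 1 in the Csf1r-null nuclei, and exchanging the labels of the 2 doubtful nuclei libraries gave 1 gene in each genotype. The stage comparison of E15.5 with E13.5 depended most on single libraries, with 16 to 5359 genes called on leaving out 1 library, against 1977. Its replicate block gave 633 genes, although deviations of libraries of equal number correlated negatively there (-0.40, -0.17 and -0.18). In the comparison of P14 with E15.5, summing the female and male libraries of saline replicate 3 gave 5381 genes, against 6302. Causes of these shifts were not tested.

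The sum of the 10 genes in E15.5 MIA replicate 1 was 1177 CPM over all cells past the filter and 1421 CPM as a mean over cells, against 1250.1 CPM. Its share of cells with Fos was 7.54% at 1000 UMIs, 19.2% at 4000 UMIs and 30.2% without thinning, against 12.6%. For named genes that passed, 620 of the refitted values still passed, 100 did not, and none changed direction. Members that gained a call did so in the stage comparisons, Atf3 and Ier2 at E15.5 and Dusp1, Jund, Fos and Nr4a1 at P14. Low counts limit what can be seen for Nr4a1 and Fosb.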
